A study of Homo sapiens with 12 samples.

Results

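The proteasome subunit genes were described at their promoters in HCC70 cells, a widely used line derived from a triple-negative breast cancer, the class that lacks the estrogen and progesterone receptors and HER2 amplification. Members were the protein-coding genes on chromosomes 1 to 22 and X whose symbols begin with PSMA, PSMB, PSMC, PSMD, PSME, PSMF or PSMG, which gave 50 of 20098 such genes. Chromatin immunoprecipitation sequencing had been performed with antibodies against SREBP2, RORγ and the histone mark H3K27ac. The cells had received vehicle or XY018, an antagonist of RORγ, for 24 h, and the sample labels give the XY018 dose as 5 µM while the methods of the study give a lower one. There were 6 immunoprecipitated libraries, 1 for each antibody and treatment, so the treatment had no replicate and no test was made of it. A gene was counted as having a promoter region when a listed peak overlapped a window around any of its transcript starts, which ran from 1000 bp before the start to 100 bp past it.

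The proteasome is the large protease that degrades ubiquitin-tagged proteins in every cell. Its 20S core is a barrel of stacked rings, with alpha subunits (PSMA) on the outside and beta subunits (PSMB) on the inside, where PSMB5, PSMB6 and PSMB7 carry the cutting sites. Immune signals exchange these for PSMB8, PSMB9 and PSMB10. The 19S cap, made of ATPases (PSMC) and non-ATPase subunits (PSMD), receives and unfolds substrates, the PSME proteins are alternative activators, PSMF1 is a regulator, and the PSMG chaperones with PSMD5, PSMD9 and PSMD10 help to build the complex. SREBP2 is the transcription factor of cholesterol synthesis, RORγ is a nuclear receptor, and H3K27ac marks active promoters and enhancers. Among the members, PSMC3IP and PSME3IP1 are partner proteins and not subunits, PSMA8 is the testis form of an alpha subunit and PSMB11 the thymus form of a beta subunit.

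Most proteasome promoters carried H3K27ac, and fewer carried RORγ than promoters in general did, while the share with SREBP2 with vehicle was close to that of all genes. With vehicle, 44 of 50 genes (88%) had an H3K27ac region (66.8% of all protein-coding genes had one), 33 (66%) had an SREBP2 region (70.6% of all genes) and 20 (40%) had a RORγ region (62.6% of all genes). With XY018, the numbers were 45 (90%) for H3K27ac (68% of all genes), 23 (46%) for SREBP2 (62.7%) and 19 (38%) for RORγ (61.5%). These counts use the full lists, which also hold weak regions with high q values. With a q of at most 0.01, SREBP2 with vehicle was at 28 members and RORγ with vehicle at 18. The shares of all genes at that cutoff were not worked out. With 5000 bp on either side of a start, RORγ with vehicle was at 40 members, and no share of all genes was worked out there either. The lower RORγ share of the members is therefore shown only for the window and full lists used here. Regions of all 3 antibodies were present at 18 genes with vehicle and at 17 with XY018, beside 50.6% and 49.6% of all genes. Among the 44 genes with an H3K27ac region with vehicle, 29 had an SREBP2 region, which is 65.9% beside 87.7% of all H3K27ac-marked genes. RORγ was present at 18 of the same 44, which is 40.9% beside 76.8%. The 15 genes with H3K27ac alone with vehicle made up 30% of the members and 7.46% of all genes.

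**Figure D1:**
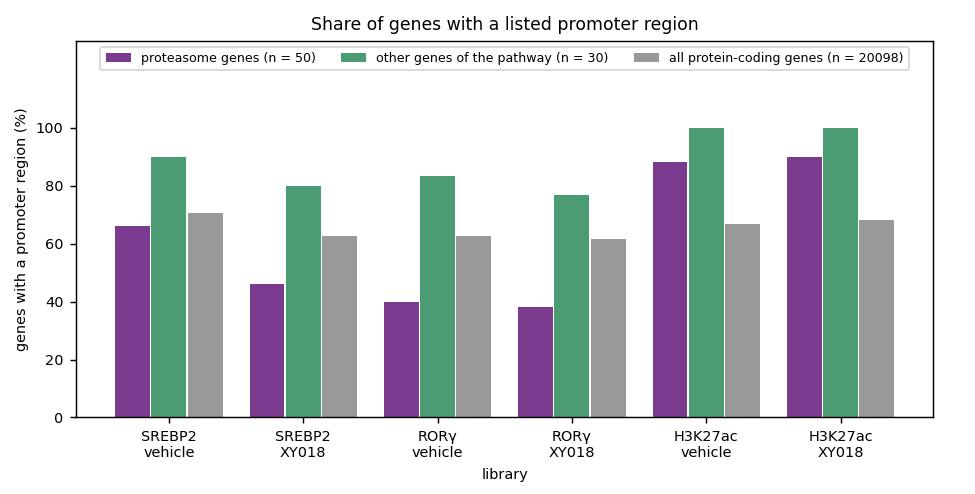
Bars give the percentage of genes with a listed promoter region (vertical axis) in each of the 6 libraries for the 50 proteasome genes, 30 other genes of the ubiquitin and proteasome pathway and all 20098 protein-coding genes. The proteasome genes lie above all genes for H3K27ac (88% beside 66.8% with vehicle) and below them for RORγ (40% beside 62.6% with vehicle).

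The counts differed between groups of the complex, which hold few genes and were not tested against each other. Over all genes with vehicle, 70.6% had SREBP2 and 62.6% had RORγ. The beta ring stood at one end: none of the 7 genes PSMB1 to PSMB7, which build the inner rings of the standard core, had an SREBP2 or RORγ promoter region in any library, although 6 of them had H3K27ac. At the other end, all 4 PSMG chaperones had regions of all 3 antibodies with both treatments. Over all genes, 50.6% had regions of all 3 with vehicle and 49.6% with XY018. The PSMG promoters were 71 to 73.3% GC from 250 bp upstream to 50 bp downstream of the canonical start. At 70% GC and over, 99.1% of all promoters had SREBP2, 96.7% RORγ and 89% H3K27ac with vehicle. The strongest SREBP2 and RORγ regions of PSMG2 lay at a far start shared with SPIRE1. The sequences just upstream of the canonical transcript start are shown for 4 beta ring genes with no SREBP2 or RORγ region and then for 4 genes with regions of all 3 antibodies with both treatments. The 8 were picked after their values were seen, as examples of low and high GC content. They were read from the GRCh37 genome in the direction of transcription, they run 5′ to 3′ and they leave out annotated exons. Capitals mark matches, on either strand, to the letters of an ETS site (CCGGAAG) or of an antioxidant response element core (TGACNNNGC).
PSMB1, chr6:170862396-170862545, minus strand: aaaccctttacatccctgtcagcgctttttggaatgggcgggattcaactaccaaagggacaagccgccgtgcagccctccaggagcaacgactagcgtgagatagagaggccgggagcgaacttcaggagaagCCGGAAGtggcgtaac
PSMB3, chr17:36908844-36908993, plus strand: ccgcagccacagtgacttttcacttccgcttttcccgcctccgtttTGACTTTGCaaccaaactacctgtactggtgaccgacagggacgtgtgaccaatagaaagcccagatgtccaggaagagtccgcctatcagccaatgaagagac
PSMB5, chr14:23504110-23504259, minus strand: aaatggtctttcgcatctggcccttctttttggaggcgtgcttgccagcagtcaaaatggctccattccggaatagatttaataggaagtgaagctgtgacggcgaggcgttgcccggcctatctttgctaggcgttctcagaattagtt
PSMB7, chr9:127177724-127177871, minus strand: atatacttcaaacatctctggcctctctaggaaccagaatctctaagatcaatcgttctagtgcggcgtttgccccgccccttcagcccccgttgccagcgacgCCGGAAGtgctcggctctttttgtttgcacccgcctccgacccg
PSMA7, chr20:60718497-60718600, minus strand: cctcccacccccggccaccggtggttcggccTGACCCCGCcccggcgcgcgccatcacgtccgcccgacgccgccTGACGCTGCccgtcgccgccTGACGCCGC
PSME1, chr14:24605253-24605371, plus strand: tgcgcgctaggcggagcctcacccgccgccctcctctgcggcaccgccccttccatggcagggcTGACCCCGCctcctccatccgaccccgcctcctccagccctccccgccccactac
PSMD2, chr3:184016879-184016985, plus strand: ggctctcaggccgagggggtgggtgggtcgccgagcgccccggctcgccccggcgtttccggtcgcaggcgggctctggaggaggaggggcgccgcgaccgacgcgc
PSMG1, chr21:40555415-40555527, minus strand: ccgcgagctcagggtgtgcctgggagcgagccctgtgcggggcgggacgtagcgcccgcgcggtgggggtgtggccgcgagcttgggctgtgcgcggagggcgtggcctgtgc
G and C made up 56.7% of the PSMB1 stretch, 52.7% of that of PSMB3, 49.3% of that of PSMB5 and 56.8% of that of PSMB7. They made up 81.7% of the PSMA7 stretch, 75.6% of that of PSME1, 80.4% of that of PSMD2 and 77.9% of that of PSMG1. The split is not complete: the corresponding stretch of PSMB2, with neither factor, was 65.3% GC, and those of PSMD3 and PSMD1, with all 3 antibodies in both treatments, were 58.7% and 64.1%.

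Levels are given as fragments at the summit, the number of sequenced DNA fragments stacked at the highest point of a gene's strongest promoter region, worked out from the fold enrichment and the p-value deposited for the peak. They are counts on a fixed point and do not depend on gene length. Over all genes with a region with vehicle, the median was 29 fragments for SREBP2, 24 for RORγ and 60 for H3K27ac. Over the proteasome genes with a region it was 18, 14.5 and 59. With XY018 the medians over the proteasome genes were 20, 15 and 47, beside 23, 21 and 66 over all genes. The member medians were below those of all genes for SREBP2 and RORγ in both libraries, and for H3K27ac they were near equal with vehicle and lower with XY018.

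**Figure D2:**
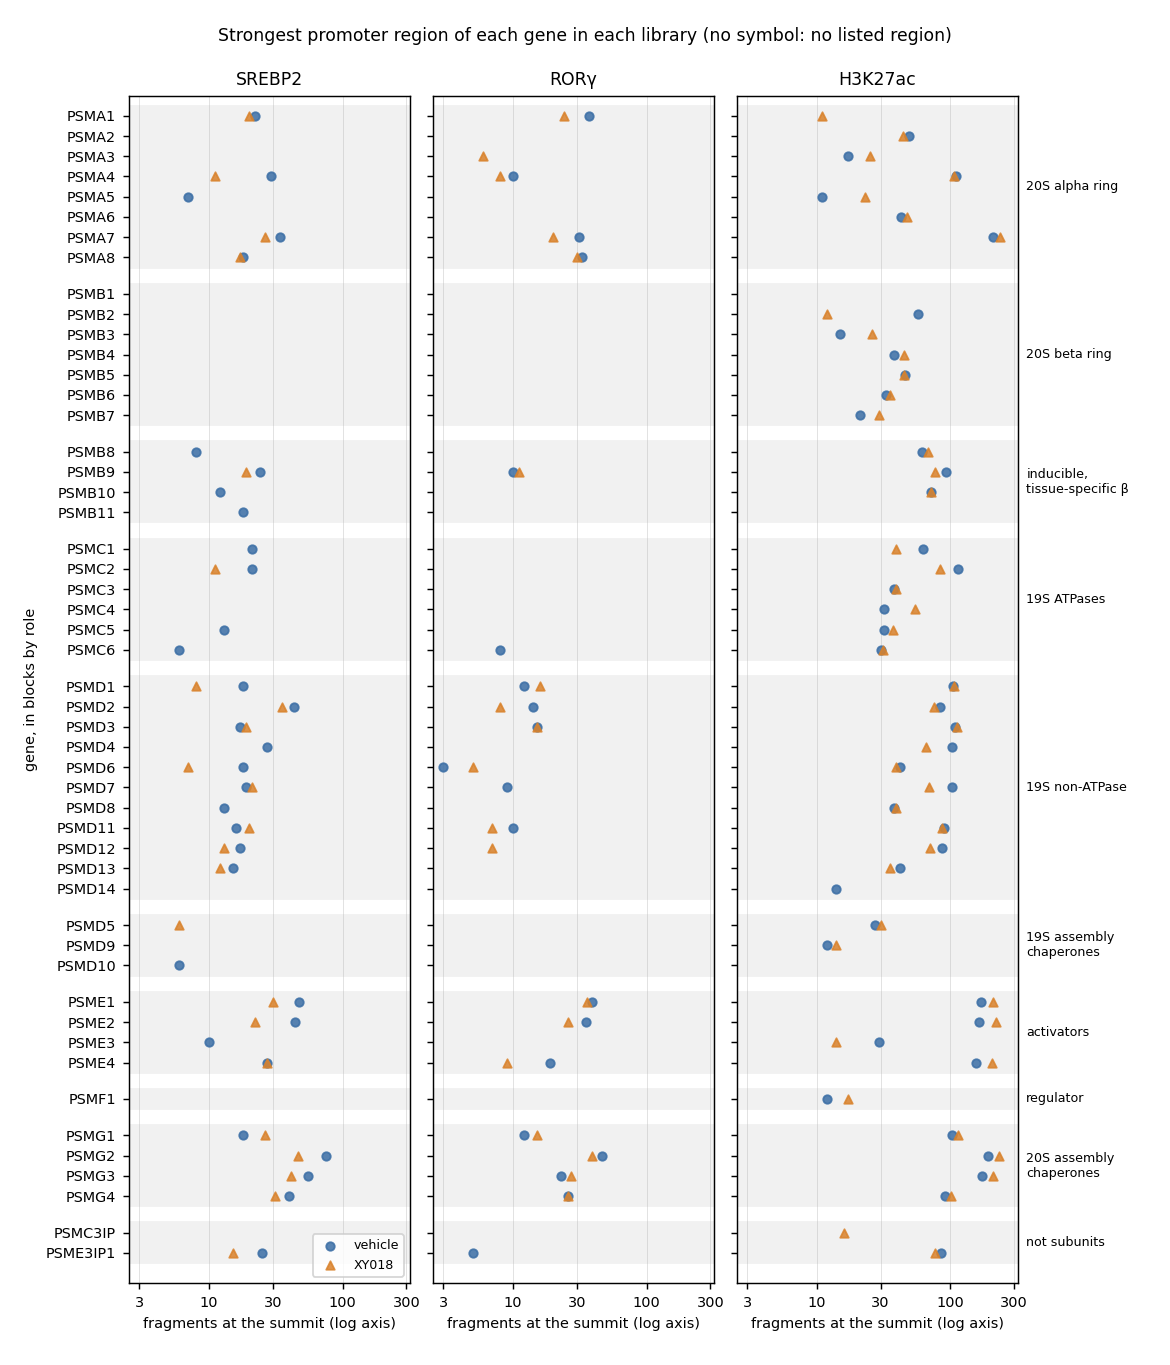
Each row is a gene, in blocks by role, and each symbol gives the fragments at the summit of its strongest promoter region (horizontal log axis) with vehicle (circles) or XY018 (triangles). The SREBP2 and RORγ panels are empty for PSMB1 to PSMB7, and the highest H3K27ac value with vehicle, 208 fragments, belongs to PSMA7.

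Within the beta ring, PSMB5, the subunit with the chymotrypsin-like activity that proteasome inhibitors bind, had 46 H3K27ac fragments with vehicle (exact Poisson 95% interval 33.7 to 61.4) and 45 with XY018 (32.8 to 60.2), at chr14:23503143-23504415 and chr14:23502863-23504084. PSMB6 and PSMB7, the other two catalytic subunits, had 33 and 21 with vehicle and 35 and 29 with XY018. PSMB4 had 38 and 45, and PSMB3 had 15 and 26, with vehicle and XY018 respectively. All 5 were below the median of all H3K27ac promoters in both libraries. PSMB2 had 57 fragments with vehicle, at chr1:36105977-36107169, and its strongest region inside the window with XY018 had 12, but a region of 67 fragments lay just outside the window at chr1:36106440-36107006, so the difference came from where a region ended. PSMB1 had no promoter region in any library. Its nearest H3K27ac region with XY018 began 1102 bp from the nearest start and had 17 fragments, and with vehicle the nearest lay 30775 bp away. PSMB1 shares its start area with TBP, the TATA-binding protein gene on the opposite strand.

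The 3 exchange subunits had higher H3K27ac counts than the catalytic subunits they replace, and each had a listed SREBP2 region with vehicle. Only that of PSMB9 had a q of at most 0.01, and that of PSMB10 lay in the window of a start other than the canonical one. PSMB9 had SREBP2 regions with 24 fragments with vehicle and 19 with XY018, RORγ regions with 10 and 11, and H3K27ac regions with 93 and 76. PSMB8 and PSMB10 had an SREBP2 region with vehicle only, with 8 and 12 fragments, no RORγ region, and H3K27ac regions with 61 and 71 fragments with vehicle and 68 and 71 with XY018. The window of PSMB9 overlaps those of PSMB8 and of the antigen transporter gene TAP1, and a region in an overlap is counted for each gene. PSMB11 had 1 region, SREBP2 with vehicle, of 18 fragments.

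In the alpha ring, PSMA7 had the highest H3K27ac level of all members, with 208 fragments with vehicle (181 to 238) and 234 with XY018 (205 to 266). Its SREBP2 regions had 34 and 26 fragments and its RORγ regions 31 and 20. PSMA7 shares its promoter with SS18L1, which is transcribed the other way. At PSMA4 the SREBP2 count was 29 with vehicle against 11 with XY018, the RORγ counts were 10 and 8, and the H3K27ac counts 110 and 106. PSMA2, PSMA3 and PSMA6 had H3K27ac alone with vehicle, at 49, 17 and 43 fragments. PSMA8 had 18 and 17 SREBP2 fragments and 33 and 30 RORγ fragments without an H3K27ac region in either library. PSMA1 had SREBP2 regions of 22 and 20 fragments and RORγ regions of 37 and 24, but the SREBP2 summit with vehicle was at -123543 bp from the canonical start, at a far start whose window is shared with PDE3B, and its own H3K27ac was listed with XY018 only, at 11 fragments.

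In the 19S cap, all 11 non-ATPase genes had an H3K27ac region with vehicle and 10 had an SREBP2 region, whereas 6 had a RORγ region. PSMD2, a scaffold subunit, had the highest SREBP2 level of the cap, with 43 fragments with vehicle and 35 with XY018. PSMD4, a receptor for ubiquitin chains, had an SREBP2 region of 27 fragments with vehicle and none with XY018, the strongest member region to be missing from the second library, and 102 and 66 H3K27ac fragments. PSMD14, the deubiquitinase of the cap, had no SREBP2 or RORγ region and a single H3K27ac region of 14 fragments (7.65 to 23.5) with vehicle, at chr2:162164563-162165455. Of the 6 ATPase genes, which unfold the substrate, all had H3K27ac and 4 had SREBP2 with vehicle, while 1, PSMC6, had RORγ, with 8 fragments in a region 10647 bp downstream of the canonical start. PSMC3 and PSMC4 had H3K27ac alone, at 38 and 32 fragments with vehicle and 39 and 54 with XY018.

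The 5 highest SREBP2 levels with vehicle were PSMG2 with 75 fragments (59.0 to 94.0), PSMG3 with 55, PSME1 with 47, PSME2 with 44 and PSMD2 with 43. With XY018 the same genes had 46, 41, 30, 22 and 35. The 5 highest RORγ levels with vehicle were PSMG2 with 46, PSME1 with 39, PSMA1 with 37, PSME2 with 35 and PSMA8 with 33, against 39, 36, 24, 26 and 30 with XY018. For H3K27ac they were PSMA7, PSMG2 with 190, PSMG3 with 171, PSME1 with 169 and PSME2 with 165, and with XY018 the last 4 had 233, 209, 210 and 219. For PSMG2 these are different regions: the one of 190 fragments was at the canonical start, chr18:12702222-12703457, and the one of 233 was at chr18:12656662-12658829, at -45759 bp from it. PSME1 and PSME2 together form the interferon-inducible 11S activator, and PSMG1 with PSMG2 and PSMG3 with PSMG4 form the pairs that assemble the alpha ring. The highest SREBP2 and RORγ regions of PSMG2 were at -44642 and -44682 bp from its canonical start with vehicle, at an upstream start whose window is shared with SPIRE1. The windows of PSME2 overlap those of RNF31 on the opposite strand. With vehicle, the PSME2 summits were at -1040 bp (SREBP2), -1047 bp (RORγ) and -1028 bp (H3K27ac) from its canonical start. PSME4, which activates the proteasome in chromatin repair and in spermatogenesis, had 27 SREBP2 fragments in both libraries, 19 and 9 for RORγ, and 155 and 205 for H3K27ac. PSME3, the nuclear activator, was the weakest activator, with 10 SREBP2 fragments with vehicle, no RORγ region, and 29 and 14 H3K27ac fragments.

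Promoters that several genes share make up part of these counts. For 18 of the 50 genes the window overlapped that of another protein-coding gene, and 15 of them had an SREBP2 region with vehicle, beside 18 of the 32 with a window of their own. For RORγ the numbers were 8 of 18 and 12 of 32. Some regions were found only at starts other than the canonical one: 3 of the 33 SREBP2 genes and 2 of the 20 RORγ genes with vehicle, and 4 of the 23 and 4 of the 19 with XY018. A binding region in a shared or far window cannot be assigned to the proteasome gene from these files.

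Fewer SREBP2 regions were listed with XY018 at proteasome promoters. Over all genes, SREBP2 was listed at 70.6% with vehicle and at 62.7% with XY018. Among the members it was listed at 22 genes with both treatments, at 11 with vehicle only and at 1 with XY018 only, and at 16 with neither. The 11 were PSMD4 with 27 fragments, PSMC1 with 21, PSMB11 with 18, PSMC5 and PSMD8 with 13 each, PSMB10 with 12, PSME3 with 10, PSMB8 with 8, PSMA5 with 7, and PSMC6 and PSMD10 with 6 each. The only gene the other way was PSMD5, a chaperone of the cap, with 6 fragments. Only PSMD4 and PSMC1 were above the member median of 18. The SREBP2 list as a whole was also shorter with XY018, 69700 regions against 117441. Counted by overlap anywhere, the strongest vehicle region met an XY018 region at 24 of 33 genes, 72.7% (exact Clopper-Pearson 95% interval 54.5 to 86.7%), beside 87.7% of all genes with one. Among regions with a q of at most 0.01 it was 24 of 28, 85.7%, and at 1e-05 it was 18 of 28, 64.3%. The shares of all genes at these cutoffs were not worked out. The vehicle regions of PSMB8, PSMD10, PSMA5, PSMC6 and PSMB10 had a q above 0.01 and met no XY018 region. They enter the 72.7% but not the 85.7%. At PSMC1 and PSMB11 the overlapping XY018 region lay outside the window.

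At the 22 genes listed with both treatments, the median SREBP2 ratio was close to that of promoters in general. The ratio of XY018 to vehicle was taken of the summit fragments divided by the genome-wide background of each library, in the pair of overlapping regions with the most fragments. The summits of a pair need not be at the same point. Those of PSMG1 for SREBP2 were at chr21:40555100 with vehicle and chr21:40555446 with XY018. The ratio had a median of 0.652 over the 22 proteasome genes (quartiles 0.511 and 0.792) and 0.621 over 12337 promoters of all genes (0.524 and 0.721). Promoters without such a pair have no ratio, so the 11 members listed with vehicle only are left out. The closeness of the medians therefore holds only for promoters listed in both libraries. Of the 22 genes, 20 were below 1, beside 98% of all, and 8 had a 95% counting interval entirely below 1, beside 36.9% of all. None had an interval entirely above 1, beside 0.00811% of all. The 4 lowest were PSMA4, from 29 to 11 fragments with a ratio of 0.321 (0.145 to 0.662), PSMD6, from 18 to 7 with 0.329 (0.116 to 0.826), PSMD1, from 18 to 8 with 0.376 (0.142 to 0.909), and PSME2, from 44 to 22 with 0.423 (0.242 to 0.721). At the other end stood PSMG1, from 18 to 26 with 1.22 (0.645 to 2.37), PSMD11, from 16 to 20 with 1.06 (0.521 to 2.18), PSMD3, from 17 to 19 with 0.946 (0.466 to 1.94), and PSMD7, from 19 to 21 with 0.935 (0.479 to 1.84). The last 4 intervals all include 1. Those of PSMA4 and PSMG1, picked as the lowest and highest of the 22 ratios, overlap, and a difference between genes was not tested. These intervals and all others here cover counting error only.

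The RORγ counts at proteasome genes lay on both sides of equality. RORγ was listed at 17 genes with both treatments, with vehicle only at PSMC6, PSMD7 and PSME3IP1, with 8, 9 and 5 fragments, and with XY018 only at PSMD12 and PSMA3, with 7 and 6. The strongest vehicle region met an XY018 region at 17 of 20 genes, 85% (62.1 to 96.8%), beside 90.4% of all genes with one, and at PSMD7 that XY018 region lay outside the window. PSMD6 had a region of 3 fragments with vehicle and one of 5 with XY018 that did not overlap. Over the 16 genes with an overlapping pair the median ratio was 0.971, beside 0.968 over all, with 8 genes below 1 and 8 above. The share of all promoters below 1 was 55.3%. No member had an interval entirely below or above 1, beside 1.65% and 1.13% of all promoters. The lowest ratios were those of PSME4, from 19 to 9 fragments with 0.524 (0.209 to 1.22), PSMD2, from 14 to 8 with 0.632 (0.230 to 1.61), PSMA7 with 0.713 (0.385 to 1.29) and PSMA1 with 0.717 (0.411 to 1.23). The PSMA7 ratio sets different points against each other, with summits at chr20:60717990 with vehicle and chr20:60719196 with XY018. The highest were PSMD1, from 12 to 16 with 1.47 (0.654 to 3.41), PSMG1, from 12 to 15 with 1.38 (0.604 to 3.23), PSMG3, from 23 to 27 with 1.30 (0.717 to 2.37), and PSMB9 with 1.22 (0.469 to 3.19). PSMD1 was among the lowest for SREBP2 and the highest for RORγ.

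**Figure D3:**
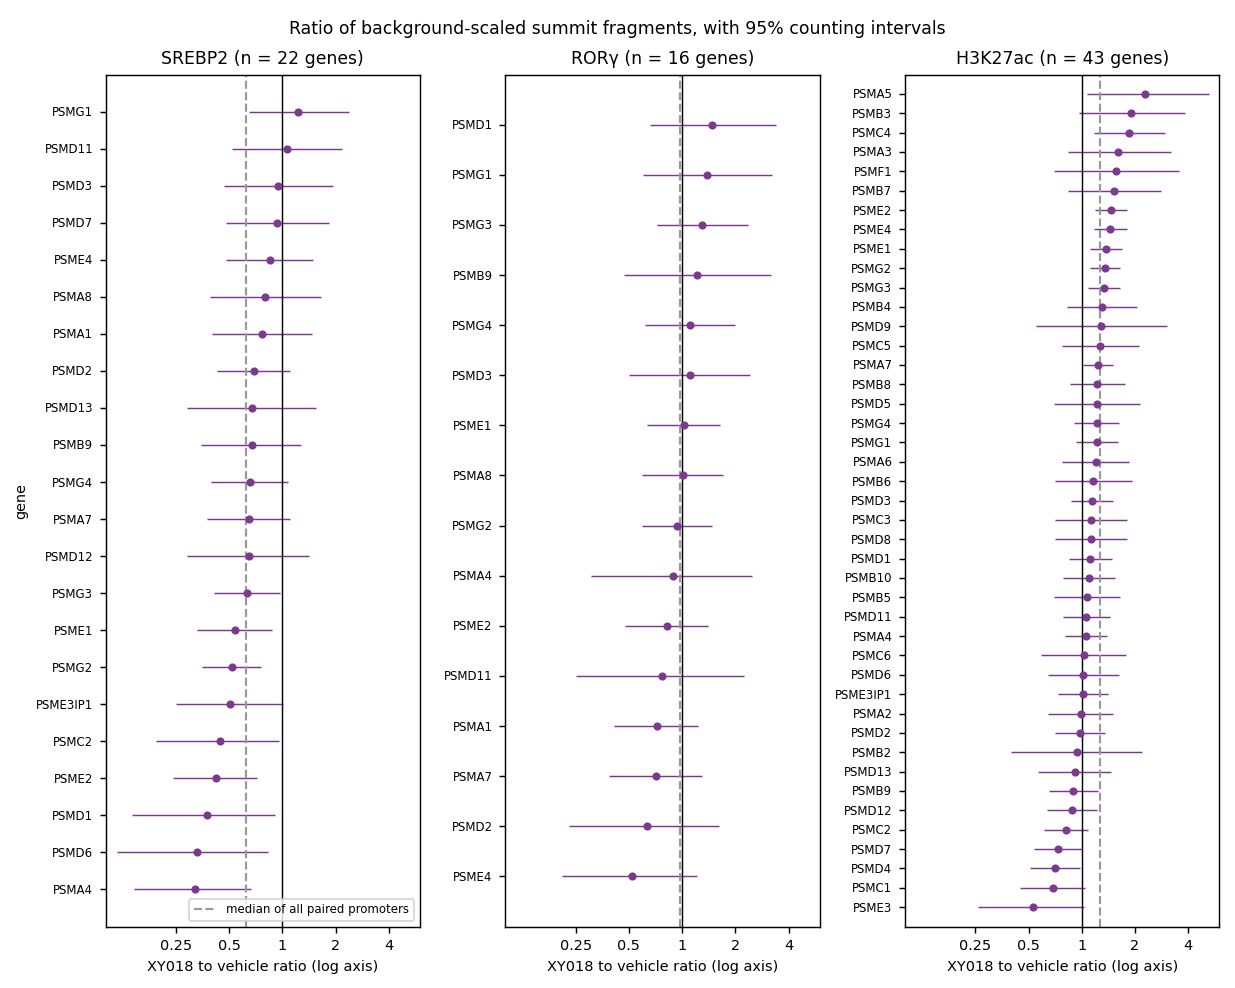
Points give each gene's XY018 to vehicle ratio of background-scaled summit fragments (horizontal log axis) with its 95% counting interval for SREBP2 (22 genes), RORγ (16) and H3K27ac (43). The solid line marks a ratio of 1 and the dashed line the median over all paired promoters; 20 SREBP2 points lie left of 1, RORγ points split 8 and 8, and 32 H3K27ac points lie right of 1.

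H3K27ac was retained at the proteasome genes, and was on the whole slightly higher with XY018. The strongest vehicle region met an XY018 region at 43 of 44 genes, 97.7% (lower bound 88.0%), beside 96.2% of all. The exception was PSMD14. With XY018 only, regions were listed at PSMC3IP, with 16 fragments, and at PSMA1. The median ratio was 1.14 over 43 genes, beside 1.27 over 12881 promoters of all genes. The upper quartile was 1.32 for the proteasome genes and 1.48 for all promoters. Of the 43, 32 were above 1 and 11 below, beside 19.6% of all below, and 8 had an interval entirely above 1, beside 36.1% of all. PSMD4 alone had an interval entirely below 1, beside 1.93% of all, with a ratio of 0.709 (0.512 to 0.976). It was also the gene whose SREBP2 region of 27 fragments was not listed with XY018. Among other genes with SREBP2 listed with vehicle only, the H3K27ac ratio was above 1 at PSMA5, PSMC5, PSMB8, PSMD8, PSMB10 and PSMC6. It was below 1 at PSMC1 and PSME3, and PSMB11 and PSMD10 had no H3K27ac region. A link between the SREBP2 calls and the H3K27ac ratios was not tested.

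Median H3K27ac ratios by part of the complex are given as descriptions, since the ranges of the groups overlapped. Over the 10 paired non-ATPase genes of the cap the median was 0.998, with 5 below and 5 above 1. It was 1.07 over the 6 ATPases, 1.23 over the 6 beta ring genes, 1.22 over 6 alpha ring genes, 1.28 over the 4 core chaperones and 1.41 over the 4 activators, which ranged from 0.529 to 1.45. The highest single ratios were PSMA5, from 11 to 23 fragments with 2.29 (1.07 to 5.21), PSMB3, from 15 to 26 with 1.90 (0.969 to 3.86), PSMC4, from 32 to 54 with 1.85 (1.17 to 2.96), and PSMA3, from 17 to 25 with 1.61 (0.836 to 3.18). The lowest, beside PSMD4, were PSME3 with 0.529 (0.258 to 1.03), PSMC1, from 62 to 39 with 0.689 (0.450 to 1.04), and PSMD7, from 103 to 69 with 0.734 (0.533 to 1.005). The 8 intervals above 1 were those of PSMA7, PSME1, PSME2, PSME4, PSMG2, PSMG3, PSMA5 and PSMC4. The first 6 had the most H3K27ac fragments among the members, and a higher count gives a narrower interval. The PSMG2 pair, from 189 to 233 fragments, lay at the far start shared with SPIRE1.

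The distance of the strongest summit from the nearest transcript start, in either direction, had a median of 125 bp for SREBP2 with vehicle and 113.5 bp for RORγ, beside 145 and 165 bp over all genes. For SREBP2, 13 of 33 summits were within 100 bp of a start (38.8% over all genes), and for RORγ 8 of 20 were (34.7%). SREBP2 summits reached from -810 to 579 bp and RORγ summits from -523 to 222 bp, with negative values upstream. Signed medians were 38, 13 and 139 bp downstream for SREBP2, RORγ and H3K27ac. At the 20 genes with both factors, the summits were a median of 52.5 bp apart, beside 71 bp over all genes, and 10 of the 20 pairs (50%) were within 50 bp, beside 40.8% of 12108 genes. The levels of the antibodies went together across genes: Spearman's rho was 0.58 between SREBP2 and RORγ (20 genes), 0.80 between SREBP2 and H3K27ac (29 genes) and 0.78 between RORγ and H3K27ac (18 genes), beside 0.78, 0.39 and 0.13 over all genes with both. These are descriptions across genes that share libraries and differ in base composition.

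Members with a RORγ region had more GC-rich promoters than members without, and for SREBP2 the difference was smaller. In the 300 bp around the canonical start, from 250 bp upstream to 50 bp downstream, the median GC content was 61.7% for the proteasome genes and 63.7% for all genes. It was 68.2% for the 20 members with a RORγ region with vehicle and 57.8% for the 30 without, beside 68.7% and 54.3% over all genes. For SREBP2 it was 62.7% for the 33 with a region and 58.3% for the 17 without, beside 67.7% and 51.3%. At 70% GC and over, all 9 members had SREBP2, RORγ and H3K27ac regions with vehicle, and 99.1%, 96.7% and 89% of all such promoters had them. Below 55% GC, 5 of 9 members had SREBP2 and none had RORγ, beside 26.3% and 23.6% of all, while 8 of 9 had H3K27ac, beside 30%. SREBP2 was present at 6 of 11 members from 55 to 60% and at 9 of 14 from 60 to 65%, so that its share among members was similar in all classes below 70%. In the class from 65 to 70%, 4 of 7 members had SREBP2 and 3 of 7 had RORγ, beside 93.9% and 78.6%. From 55 to 60% RORγ was present at 3 of 11 members beside 45.5%, and from 60 to 65% at 5 of 14 beside 59.9%. In the 4 classes below 70%, the RORγ share of the members was therefore below that of all promoters of similar GC content. The GC classes were drawn after the counts were seen, and the part that base composition had in the counts was not tested.

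**Figure D4:**
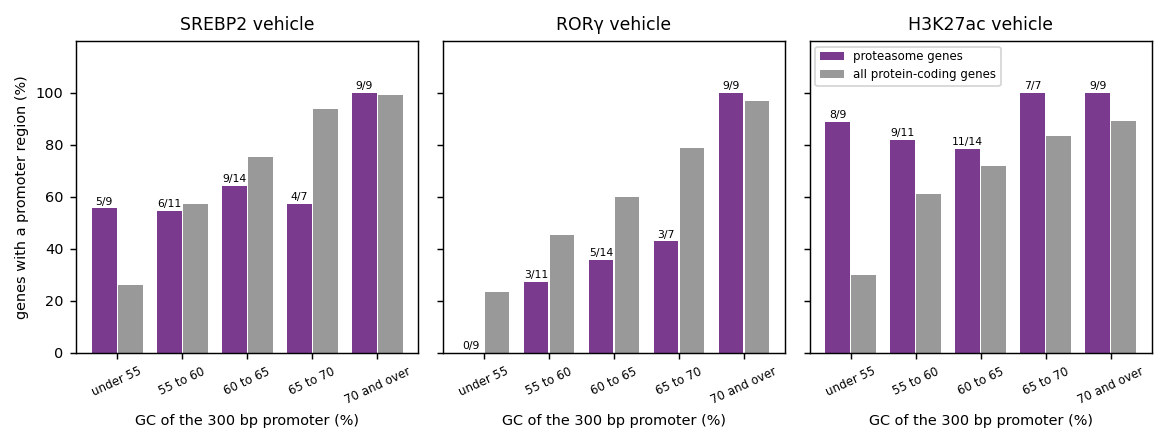
Bars give the percentage of genes with a promoter region with vehicle (vertical axis) by GC content of the 300 bp promoter (horizontal axis, percent) for the proteasome genes, with their number in each class above the bar, and for all protein-coding genes. RORγ was present at none of the 9 proteasome genes below 55% GC and at all 9 at 70% and over, and H3K27ac at 8 of 9 and 9 of 9.

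Among 9 motifs, the letters of an ETS site had the share at proteasome promoters that differed most from the share at all promoters. In the same 300 bp, CCGGAAG occurred on either strand in 20 of 50 proteasome promoters, 40%, beside 14% of all promoters. The antioxidant response element core, TGACNNNGC, which is the kind of element that the proteasome regulator NFE2L1 binds, occurred in 14, 28% beside 14.1%. In a longer window, from 1000 bp upstream to 100 bp downstream, the ETS letters were in 42% beside 20.6% and the antioxidant response element core in 42% beside 35.9%. The CCAAT box (CCAAT) occurred in 44% beside 35.9%, and the SP/KLF letters (GGGCGG) in 70% beside 61%. The sterol regulatory element of SREBP2 (TCACNCCAC) occurred in 1 promoter, that of PSMA6, 2% beside 1.21%, and PSMA6 had no SREBP2 region in any library. In the longer window it occurred in 6% beside 6.11%, at PSMA6, PSMB6 and PSMD11. Of these, PSMD11 had SREBP2 regions, with 16 fragments with vehicle and 20 with XY018. The RORγ half-site (AGGTCA) occurred in 4, 8% beside 11.3%, namely PSMB2, PSMD1, PSMD7 and PSMG4. PSMD1, PSMD7 and PSMG4 had a RORγ region with vehicle and PSMB2 had none, where 40% of all members and 62.6% of all genes had one. The PSMD7 region had 9 fragments and a −log10 q of 0.933. With 4 genes, the letters cannot be set against binding. The E-box (CACGTG) occurred in 8% beside 8.73%, the NRF1 site in 10% beside 8.37% and the TATA box (TATAAA) in 10% beside 9.79%. Matches are letters and not shown to be bound, and the same stretch can hold several.

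**Figure D5:**
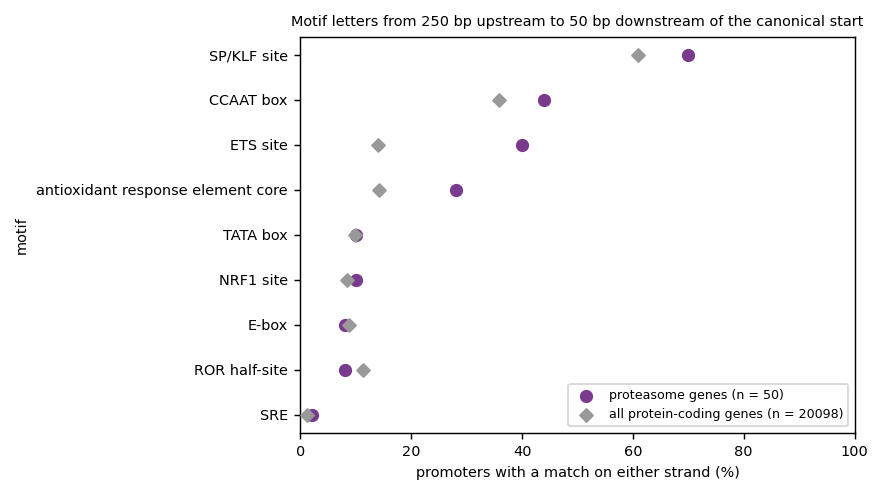
Points give the percentage of promoters (horizontal axis) that hold each of 9 motifs on either strand, for the 50 proteasome genes (circles) and all 20098 protein-coding genes (diamonds). The proteasome genes differ most from all genes for the ETS site, 40% beside 14%, and the antioxidant response element core, 28% beside 14.1%.

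Other genes of the ubiquitin and proteasome pathway carried the factors more often than the subunit genes. Of 30 such genes, 27 had an SREBP2 region with vehicle and 24 with XY018, 25 and 23 had RORγ, and all 30 had H3K27ac with both. The SREBP2 ratio was below 1 at 24 of 24 paired genes, beside 98% of all, with a median of 0.674 beside 0.621. The RORγ median was 0.957 over 22 genes, beside 0.968 over all promoters. The H3K27ac median was 1.21 over 30, beside 1.27. NFE2L1, the transcription factor that raises proteasome gene expression when the proteasome is inhibited, had 24 and 16 SREBP2 fragments, 11 and 11 for RORγ, and 124 and 151 for H3K27ac with vehicle and XY018. POMP, the maturation chaperone of the core, had 30 and 18 for SREBP2, 10 and 12 for RORγ, and 90 and 99 for H3K27ac. ADRM1, a ubiquitin receptor in the cap, had 41 and 20 for RORγ, a ratio of 0.539 (0.299 to 0.942), and VCP, the segregase that hands substrates to the proteasome, had 50 and 28 for SREBP2, a ratio of 0.474 (0.287 to 0.768). SEM1, a small cap subunit whose symbol falls outside the rule, had an SREBP2 region of 9 fragments with vehicle and 24 H3K27ac fragments in each library.

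The depth of the libraries sets how far absences can be read. The genome-wide background stood for 3.65 to 6.16 tags per kb, lowest in the RORγ libraries, and regions were listed from a few fragments upward. The lowest −log10 q listed with vehicle was 0.380 for SREBP2 and 0.431 for RORγ. The H3K27ac lists held 95099 and 105371 regions with vehicle and XY018, while their peak numbers ran to 245055 and 241397, so they are parts of longer lists, and a gene with no listed H3K27ac region is not shown to lack the mark. H3K27ac was listed at all 4 epithelial marker genes and at 4 of 6 basal markers with vehicle, beside 66.8% of all genes. KRT14 and KRT6A had no listed region there. H3K27ac was also listed at ERBB2, with 180 fragments, and at ESR1, with 10, but not at PGR. It was listed at 3 of 8 matched markers of other cell types, among them COL1A1 with 110.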

How the data were processed

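The 6 immunoprecipitated libraries were analysed, 1 per group, and the 6 inputs were not used here. According to the methods of the study, tags were aligned to hg19 with BWA (the submitters' processing notes list Bowtie2), filtered and deduplicated, and peaks were called with MACS2 2.1.0. The deposited lists give, per peak, a fold ratio of summit pileup plus 1 over local background plus 1, −log10 p and −log10 q values and a summit offset. The score the authors deposited, a display value, was not used. Fold and p were solved under the Poisson model of MACS for whole fragments, which succeeded for 100% of peaks (tolerance 5% of 1 fragment or 0.0001 in log10 p), and the method was tested on simulated data.

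Starts came from GENCODE 44 lifted to GRCh37, on which 0 peaks ended beyond a chromosome. Overlap meant at least 1 bp. Ratios have exact conditional binomial intervals and shares Clopper-Pearson intervals, at 95%. The members and lists were chosen with earlier results of these data known. Values were given in full, by rule, for the 5 strongest vehicle regions, the 4 lowest and 4 highest ratios, each changed call, genes without a region, and PSMB5 to PSMB10, PSME1, PSME2, PSMD4, PSMD14 and PSMC4. PSMD2, PSMB4, PSMB2, PSME4, PSMA2, PSMA6, PSMC3, NFE2L1, POMP, ADRM1, VCP and SEM1 were named after their values were seen. Analyses used Python 3.11.15, pandas 2.3.3, SciPy 1.17.1 and pysam 0.24.0.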

Additional observations from a re-analysis of the deposited data

Results flagged for a closer look

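Regions inside the proteasome genes but outside their promoter windows entered no comparison above. With vehicle and XY018 there were 48 and 17 such SREBP2 regions, 57 and 44 RORγ regions, and 104 and 119 H3K27ac regions. The whole lists held 117441 and 69700 SREBP2 regions, 167264 and 129954 RORγ regions, and 95099 and 105371 H3K27ac regions. They changed in the same directions, and the numbers inside all genes were not worked out. The tallest SREBP2 and RORγ regions inside members but outside their windows were in PSMG4. They had 57 fragments for SREBP2 with vehicle, at chr6:3253655-3254360, and 43 with XY018, and 67 and 55 for RORγ. These PSMG4 regions lie upstream of its canonical start, at chr6:3259181 on the plus strand. They count as inside because the annotated gene begins at 3231637. The tallest for H3K27ac with XY018 was the region of 67 fragments in PSMB2, past the end of the promoter window.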

How the results depend on the processing

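No paired analysis was possible because each group had 1 library, and for the same reason no replicate could be left out. Of 103 alternative values, 76 stayed within their limits, 26 moved and 1 changed direction: the RORγ median ratio was 1.063 with canonical starts only. In the 32 genes with windows of their own, chosen after seeing the data, 18 and 13 had SREBP2 regions with vehicle and XY018, 12 and 12 RORγ, and 29 and 29 H3K27ac. Fewer genes enter these counts, and for SREBP2 with vehicle the share was lower too, 56.2% beside 83.3% of the 18 genes with shared windows. With 5000 bp on either side, RORγ was at 40 and 32 genes and all 3 antibodies at 31 with vehicle. At a q of at most 1e-05, RORγ with XY018 was at 12. The shares of all genes at these settings were not worked out, so these counts cannot be set against promoters in general. Scaled by tags per kb, 4 SREBP2 ratios were above 1 and 5 intervals lay below it. Without scaling these were 4 and 4, 4 RORγ ratios were above 1, and for H3K27ac the median ratio was 1.037, with 17 genes below 1, 5 intervals below it and 5 above. From 1000 bp upstream to 100 bp downstream, the ROR half-site was in 56% of proteasome promoters (48.4% of all), the antioxidant response element core in 42% (35.9%), the CCAAT box in 72% (73.5%), the SP/KLF site in 86% (72.2%) and the TATA box in 46% (37.9%). From the canonical start, summits lay at medians of 149 bp for SREBP2, 129 bp for RORγ and 193 bp for H3K27ac with vehicle. The cause of these shifts was not tested.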
